A study of Mus musculus with 6 samples.

Results

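Synaptic vesicle and active zone genes encode the proteins that store neurotransmitter, release it at the presynaptic membrane and retrieve the vesicle afterwards. A set of 41 such genes was followed here by symbol in RNA sequencing of mouse hypothalamus, and 41 of 41 were found among the 18228 genes of the count table. The aged group held 3 mice aged 22 months and the young group 3 mice aged 12 weeks. They came from 5 mice per group that had gone through a behavioural experiment in a study of cognitive decline with age. All mice had free food and water on a regular light and dark cycle and were killed by dislocation under pentobarbital. The labels give no strain, sex, litter or batch, so p-values measure the spread between these mice alone.

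At a presynaptic terminal, synapsins tether vesicles in a reserve cluster, and scaffolds of the active zone such as Bassoon, Piccolo, RIM and ELKS hold vesicles and calcium channels close together. Munc13 proteins prime the vesicle, and the SNARE proteins synaptobrevin, syntaxin and SNAP-25 pull its membrane onto the plasma membrane when synaptotagmin binds calcium. NSF and its SNAP adaptors then take the SNARE complex apart, and dynamin, amphiphysin and synaptojanin recover the vesicle membrane by endocytosis. In the hypothalamus this machinery serves fast glutamate and GABA transmission, while neuropeptides leave from dense-core vesicles.

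Each library held 17208291 to 18884403 counted reads, of which the 41 genes took 1.45% to 1.54% in aged and 1.56% to 1.70% in young libraries. Reads of 4 genes of the Y chromosome (Uty, Eif2s3y, Kdm5d and Ddx3y) added up to between 3394 and 3617 per aged mouse and between 24 and 32 per young mouse, so age and this sex-linked signal cannot be told apart. Hypothalamic markers were present in every library (10 genes, 1189 to 1310.3 summed CPM in aged and 1255 to 1405 in young). Single markers differed more than these sums. At an edgeR adjusted p under 0.05, 1 of the 10 was higher in aged mice (Avp) and 1 lower (Hcrt), against 3.22% and 3.64% of all tested genes. Log2 ratios of aged to young ran from -0.82 (Hcrt) to 1.59 (Agrp, 6 to 103 reads per library). The part of tissue sampling in these was not tested. CPM are counts scaled to a common library total, here after TMM normalisation, which corrects for differences in library composition. Young replicate 2 stood apart in markers of cortex, hippocampus and amygdala, which summed to 1520.5 CPM there, against 789 to 933 CPM in aged libraries and 858 and 1076 CPM in the other young libraries. Tissue RNA does not tell fewer neurons from less RNA per neuron.

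Few of the 41 genes were called as changed, and those that were lay lower in aged hypothalamus. Syn1, Syn3, Rims1, Bsn and Synj1 fell, 0 rose and 36 did not pass at an adjusted p under 0.05 (edgeR's quasi-likelihood test with Benjamini-Hochberg adjustment over 14702 genes). Over all tested genes, 3.64% fell and 3.22% rose, against 12.2% of the 41 that fell. At an unadjusted p under 0.05, 18 of the 41 were lower and 0 higher, where 13.7% of all tested genes were lower and 12.6% higher. DESeq2 and limma-voom also called 0 of the 41 higher.

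The differences were small and mostly of the same sign. The log2 fold change, aged over young, was negative for 37 of the 41 genes, against 50.8% of all tested genes. Its median was -0.15 over the 41 and -0.0035 over all tested genes. Values ran from -0.66 (Sv2b) to 0.12 (Synpr). The groups did not overlap, with all aged libraries lower, for 18 of the 41 genes, against a share of 16.2% among all tested genes. The opposite order, with all aged libraries higher, was seen for 0 of the 41 and for 15.5% of all genes.

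The number of calls depended on single libraries. In edgeR the 5 calls became 0 without aged replicate 3, where the adjusted p of Syn1 was 0.0544, 1 (Syn1) without young replicate 1 and 2 (Syn1 and Bsn) without aged replicate 1. Over all tested genes, the share that fell went from 3.64% to 0.37%, 0.81% and 0.64% in these fits, in the same order. Young replicate 2 held the highest level of the 6 libraries for 24 of the 41 genes, and the median log2 fold change without it was -0.12. Aged replicate 3 held the lowest level for 16 and aged replicate 1 for 12. DESeq2 called 10 lower, adding Rims3, Stx1a, Syt11, Syt2 and Syt7, where it called 3.95% of all genes lower.

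**Figure D1:**
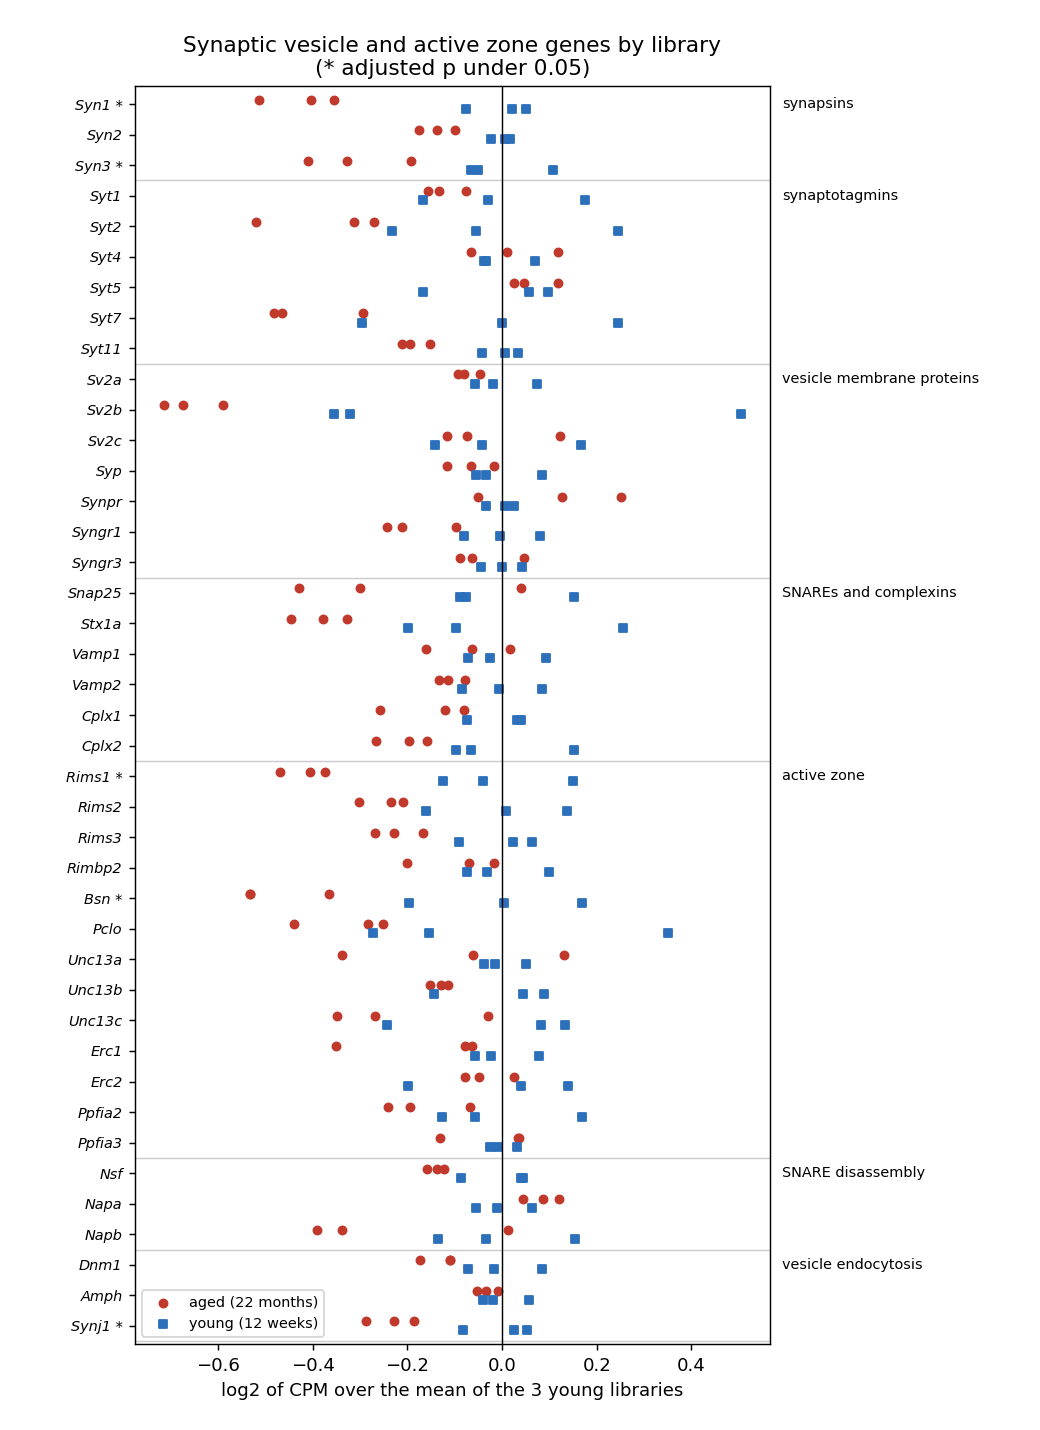
Log2 of CPM in each library over the mean of the 3 young libraries, for 41 genes grouped by role; circles are aged and squares young libraries, and a star marks genes at an adjusted p under 0.05. Most circles lie left of the line at 0, and for 18 genes all 3 lie left of every square.

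Synapsins are phosphoproteins on the outer face of the vesicle that hold it in the reserve pool. Syn1 stood at 406, 419.8 and 376 CPM in aged libraries, against 556, 545 and 509 CPM in young libraries. The groups did not overlap. Syn1 averaged 401 ± 22.3 CPM in aged mice and 537 ± 24.4 CPM in young mice (n = 3 per age, ± SD), and fell by 0.42 on the log2 scale (SE 0.06, edgeR adjusted p = 0.00844), a level 25.3% lower. Syn1 is X-linked, as is Syp among the 41 genes. Age and the sex-linked signal above cannot be told apart for these or for any other gene here, X-linked or not.

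Syn3, the least abundant synapsin, stood at 58.9, 50.7 and 53.7 CPM in aged libraries and at 72.6, 64.3 and 65.0 CPM in young libraries. It fell by 0.31 on the log2 scale (SE 0.08, edgeR adjusted p = 0.0484), with no overlap between groups, but lost the call without any single library. Exons of Timp3, an inhibitor of matrix metalloproteinases encoded on the opposite strand inside Syn3, overlap 14.1% of the Syn3 exon sequence in the GENCODE M21 annotation. The strand setting of the counting is not given in the sources used here, so reads of Timp3 (169 ± 22.6 CPM in aged, 203 ± 18.4 CPM in young libraries, SD, n = 3 each; log2 fold change -0.26, edgeR adjusted p = 0.141) cannot be told apart from those of Syn3. This limit concerns only reads in the overlapping bases. Exons of 15 of the 41 genes overlap an exon on the opposite strand in this annotation, and the limit holds for those stretches too. Their part of the exon sequence ran from 0.27% (Syn1) to 24.5% (Ppfia2). Among the other genes that fell, it was 0.74% for Synj1 and 0% for Rims1 and Bsn. Syn2 did not pass, although its groups did not overlap either. It stood at 491, 466 and 478 CPM in aged libraries, against 529, 532 and 517 CPM in young libraries (log2 fold change -0.14 ± 0.05 SE, edgeR adjusted p = 0.135).

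The Syn1 promoter is shown because Syn1 had the smallest adjusted p of the 41 genes and its promoter was the only one of theirs to hold both motifs searched. The sequence runs from 250 bases before to 50 bases after the start of the gene (RefSeq, build GRCm38.p6, chrX:20920869-20921168, minus strand), with motif matches in capitals.
Syn1: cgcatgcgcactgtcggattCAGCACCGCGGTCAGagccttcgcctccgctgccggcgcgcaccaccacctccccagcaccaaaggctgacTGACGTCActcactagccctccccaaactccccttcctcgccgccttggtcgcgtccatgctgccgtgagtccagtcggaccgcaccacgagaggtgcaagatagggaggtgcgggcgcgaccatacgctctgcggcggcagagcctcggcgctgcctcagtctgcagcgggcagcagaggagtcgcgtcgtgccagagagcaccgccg
The first match is to the core of the RE1 element bound by the repressor Rest, searched on both strands with up to 2 mismatches. The second is an exact match to TGACGTCA, the cyclic AMP response element, which reads the same on both strands. Of 27025 genes with promoter sequence, 2.22% held the RE1 core and 2.03% the cyclic AMP response element. Of 33 of the 41 genes matched in the promoter table, 2 held the RE1 core (Syn1 and Syt2) and 2 the cyclic AMP response element (Syn1 and Napa). The promoters of Rims1, Bsn and Synj1 held neither motif in this window.

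**Figure D2:**
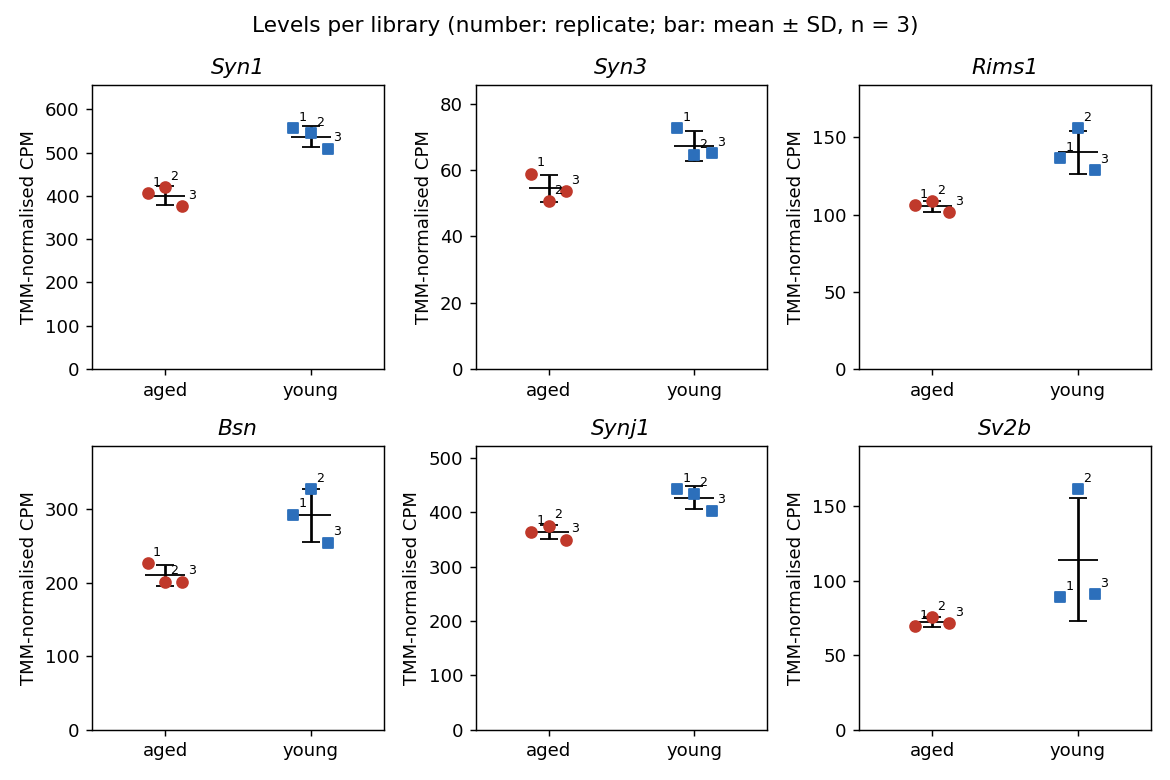
TMM-normalised CPM per library for the 5 genes that fell and for Sv2b, which did not pass; points are libraries numbered by replicate, and bars give the mean ± SD (n = 3). The aged points lie below all young points in each panel, and the 3 young points of Sv2b lie at 89.0, 162 and 91.1 CPM.

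Among 13 active zone genes, Rims1 and Bsn fell, 0 rose and 11 did not pass. Log2 fold changes were negative for 13 of 13, with a median of -0.17, and groups did not overlap for 5. Among all tested genes, 3.64% fell, 50.8% had negative values and 16.2% had all aged libraries below all young ones. Rims1 encodes a scaffold that links vesicle-bound Rab3, Munc13 and calcium channels. It stood at 106, 109 and 101 CPM in aged libraries, against 137, 156 and 129 CPM in young libraries. It fell by 0.42 on the log2 scale (SE 0.08, edgeR adjusted p = 0.0178), and the nearest libraries of the groups were 109 CPM (aged) and 129 CPM (young).

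Bsn encodes Bassoon, a very large scaffold of the presynaptic cytomatrix. It stood at 227, 202 and 202 CPM in aged libraries, against 293, 328 and 255 CPM in young libraries. The groups did not overlap, and Bsn fell by 0.47 on the log2 scale (SE 0.09, edgeR adjusted p = 0.0200), a level 28.0% lower. Its relative Pclo, which encodes Piccolo, ranged from 232 to 264 CPM in aged mice and 260.04 to 401 CPM in young mice (log2 fold change -0.32 ± 0.14 SE, edgeR adjusted p = 0.181). The groups of Pclo overlapped, and its highest level was in young replicate 2.

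The other RIM genes among the 41, Rims2 and Rims3, did not pass, though aged libraries lay below young ones for both. Rims3 averaged 441 ± 15.7 CPM in aged mice and 514 ± 28.1 CPM in young mice (n = 3 per age, ± SD; edgeR adjusted p = 0.0602). Rims2 averaged 84.9 ± 2.81 CPM in aged mice and 100.8 ± 10.3 CPM in young mice (edgeR adjusted p = 0.0867). The priming factors Unc13a, Unc13b and Unc13c had log2 fold changes of -0.08, -0.13 and -0.21, with overlap between groups in each. Unc13b, the second least abundant of the 41 genes per length, stood at 40.5, 41.6 and 41.2 CPM in aged libraries, against 40.8, 47.9 and 46.4 CPM in young libraries (edgeR adjusted p = 0.312). Young replicate 1 lay among the aged libraries for this gene. The ELKS genes Erc1 and Erc2, the liprins Ppfia2 and Ppfia3 and the RIM-binding protein gene Rimbp2 had log2 fold changes of -0.17 to -0.02. Of these, only the groups of Erc1 did not overlap. Ppfia2, the third least abundant, stood at 62.8, 68.6 and 60.9 CPM in aged libraries, against 65.8, 80.8 and 69.1 CPM in young libraries (edgeR adjusted p = 0.260).

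Of 6 SNARE and complexin genes, 0 passed in edgeR, and all 6 had negative log2 fold changes (median -0.18). DESeq2 called Stx1a alone among them, and limma-voom none. At an unadjusted p under 0.05, Stx1a, Cplx1 and Cplx2 were lower, and the same 3 genes had groups that did not overlap. Among all tested genes, 13.7% were lower at this threshold and 16.2% had all aged libraries below all young ones. Stx1a, the syntaxin of the plasma membrane, stood at 59.3, 62.1 and 64.3 CPM in aged libraries and at 70.4, 96.3 and 75.4 CPM in young libraries (log2 fold change -0.38 ± 0.11 SE, edgeR adjusted p = 0.0632).

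The main SNARE partners of Stx1a were far more abundant and their groups overlapped. Snap25 was the most abundant of the 41 genes per length, on the gene lengths used by the authors. It stood at 1089, 1379 and 995 CPM in aged libraries, against 1260.2, 1489 and 1272 CPM in young libraries (log2 fold change -0.22 ± 0.12 SE, edgeR adjusted p = 0.270). Replicate 2 was the highest library of each age for Snap25. Snap25 passed in 1 of 6 fits that left out a library. Without aged replicate 2, its log2 fold change was -0.35, with an edgeR adjusted p of 0.0351. That fit called 4.94% of all tested genes lower, against 3.64% with all libraries. Over 19 alternative fits the log2 fold change of Snap25 ran from -0.35 to -0.11. Vamp2, the vesicle SNARE synaptobrevin 2, stood at 843, 854 and 875 CPM in aged libraries, against 919.8, 979.7 and 871 CPM in young libraries (edgeR adjusted p = 0.286). Only young replicate 3 reached into the aged range. Complexins, small proteins that clamp and then assist fusion, had log2 fold changes of -0.15 ± 0.06 SE (Cplx1) and -0.21 ± 0.07 SE (Cplx2).

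Among 7 genes of vesicle membrane proteins, 0 passed in edgeR or limma-voom, and 0 in DESeq2. Sv2b and Syngr1 were lower at an unadjusted p under 0.05 in edgeR, as were 13.7% of all tested genes. Sv2b, a glycoprotein of the vesicle membrane, had the most negative fold change of the 41 genes, and it rested on young replicate 2. It stood at 69.4, 75.7 and 71.4 CPM in aged libraries, against 89.0, 162 and 91.1 CPM in young libraries. The log2 fold change of Sv2b was -0.66 ± 0.20 SE (edgeR adjusted p = 0.0742). Without young replicate 2 it was -0.31, with an edgeR adjusted p of 0.0399, and Sv2b passed in 1 of 6 fits that left out a library. In the same libraries Slc17a7, a vesicular glutamate transporter and marker of cortex, hippocampus and amygdala neurons here, stood at 9.58, 22.1 and 15.1 CPM in aged and at 11.3, 173 and 58.5 CPM in young mice. The part of such tissue in the Sv2b level was not tested.

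The other vesicle membrane genes differed little. Syp, which encodes synaptophysin, an abundant vesicle protein widely used as a synapse marker, stood at 1139.6, 1221 and 1181 CPM in aged libraries. In young libraries it stood at 1207, 1310.3 and 1189 CPM (log2 fold change -0.07 ± 0.06 SE, edgeR adjusted p = 0.536). Sv2a, Sv2c and Syngr3 had log2 fold changes of -0.07 to -0.02, all with overlap. Synpr, which encodes synaptoporin, was the member with the highest fold change, at 0.12 ± 0.08 SE (edgeR adjusted p = 0.410), and its groups overlapped too. For Syngr1, a synaptogyrin, the groups did not overlap, with 589.7 ± 32.0 CPM in aged mice and 669 ± 37.2 CPM in young mice (n = 3 per age, ± SD; edgeR adjusted p = 0.113).

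Synaptotagmins include fast calcium sensors (Syt1, Syt2), a slow one (Syt7) and forms that do not trigger fusion through calcium (Syt4, Syt11). Of 6 members, 0 passed in edgeR and in limma-voom, while DESeq2 called Syt2, Syt7 and Syt11 lower, where it called 3.95% of all genes lower. Syt11, with the smallest unadjusted p of the 6, stood at 829.5, 864 and 838 CPM in aged libraries, against 983, 964 and 932 CPM in young libraries. The groups did not overlap (log2 fold change -0.19 ± 0.05 SE, edgeR adjusted p = 0.0650). Syt7 had 205, 182 and 180.1 CPM in aged libraries, against 252, 298 and 205 CPM in young libraries, so that aged replicate 1 lay just above young replicate 3. Syt2 averaged 79.3 ± 7.14 CPM in aged mice and 102 ± 17.3 CPM in young mice without overlap (SD, n = 3 each; edgeR adjusted p = 0.0874). Syt1, the principal sensor of forebrain synapses, averaged 908 ± 26.2 CPM in aged mice and 987 ± 118 CPM in young mice, which overlapped (edgeR adjusted p = 0.390). Syt4 and Syt5 had log2 fold changes of 0.02 and 0.06.

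Of 3 genes for taking the SNARE complex apart, 0 passed in edgeR, DESeq2 or limma-voom, and Nsf was lower at an unadjusted p under 0.05. Nsf, the ATPase of this step, stood at 898, 907 and 885 CPM in aged libraries, against 1015, 1018 and 930.1 CPM in young libraries. The groups did not overlap (log2 fold change -0.14 ± 0.06 SE, edgeR adjusted p = 0.160). Its adaptors Napa (alpha-SNAP) and Napb (beta-SNAP) had log2 fold changes of 0.08 ± 0.06 SE and -0.23 ± 0.11 SE, with overlap in both.

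Of 3 genes for vesicle endocytosis, Synj1 fell and 2 did not pass. Synj1 encodes synaptojanin 1, a lipid phosphatase that helps shed the clathrin coat. It stood at 365, 376 and 350.1 CPM in aged libraries, against 443, 435 and 404 CPM in young libraries. The groups did not overlap, and Synj1 fell by 0.23 on the log2 scale (SE 0.06, edgeR adjusted p = 0.0475). The log2 fold change of Synj1 kept its call in 1 of 6 fits that left out a library, the one without aged replicate 2. It also lost the call with total-count scaling (adjusted p = 0.0622) and with no filter on low counts (0.0511). Dnm1, the GTPase that pinches off the vesicle, averaged 1097 ± 27.6 CPM in aged mice and 1201 ± 66.0 CPM in young mice without overlap (SD, n = 3 each; edgeR adjusted p = 0.200). Amph, which encodes amphiphysin, was nearly level, at 207 ± 3.25 CPM in aged mice and 212 ± 7.54 CPM in young mice (edgeR adjusted p = 0.752).

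Gene length stood beside these differences. The length used by the authors for FPKM, recovered from the counts and FPKM, had a median of 5762 bases over the 41 genes and 3693 bases over all tested genes. Across the whole table, longer genes had lower fold changes in aged mice. Over 10 length classes of about equal size, the median log2 value was 0.11 for the shortest genes and -0.12 for the longest. Of the 41 genes, 12 lay in the longest class (9192 bases or more), and 12 of these 12 had negative fold changes, with a median of -0.24. That class held 4 of the 5 genes that fell (Syn3, Rims1, Bsn and Synj1), 4 of 12, where 10.7% of all genes in it fell. The exception was Syn1, at 3213 bases, in a class with a median of 0.01 where 2.31% of genes fell. Of the 41 genes, 34 lay below the median of their own length class. Across the 41 genes, length and fold change had a Spearman correlation of -0.47, given as a description since the points share libraries. Against exon length in GENCODE M21 it was -0.19.

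With the length trend of each library removed, 3 of the 41 genes fell and 0 rose, against 2.33% and 2.80% of all tested genes. Syn1 fell by 0.44 (edgeR adjusted p = 0.00738), Rims1 by 0.31 (0.0319) and Bsn by 0.33 (0.0385). Syn3 (log2 fold change -0.09, edgeR adjusted p = 0.628) and Synj1 (-0.13, 0.220) lost their calls. The value of Syn3 rests on a length of 72060 bases, 5.87 times its exon length in GENCODE M21 (12282 bases). The median over the 41 genes became -0.11, and 0.00 over all tested genes. The log2 fold changes of Sv2c, Unc13b, Erc2, Ppfia2 and Ppfia3 turned from negative to positive, at 0.00 to 0.07.

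**Figure D3:**
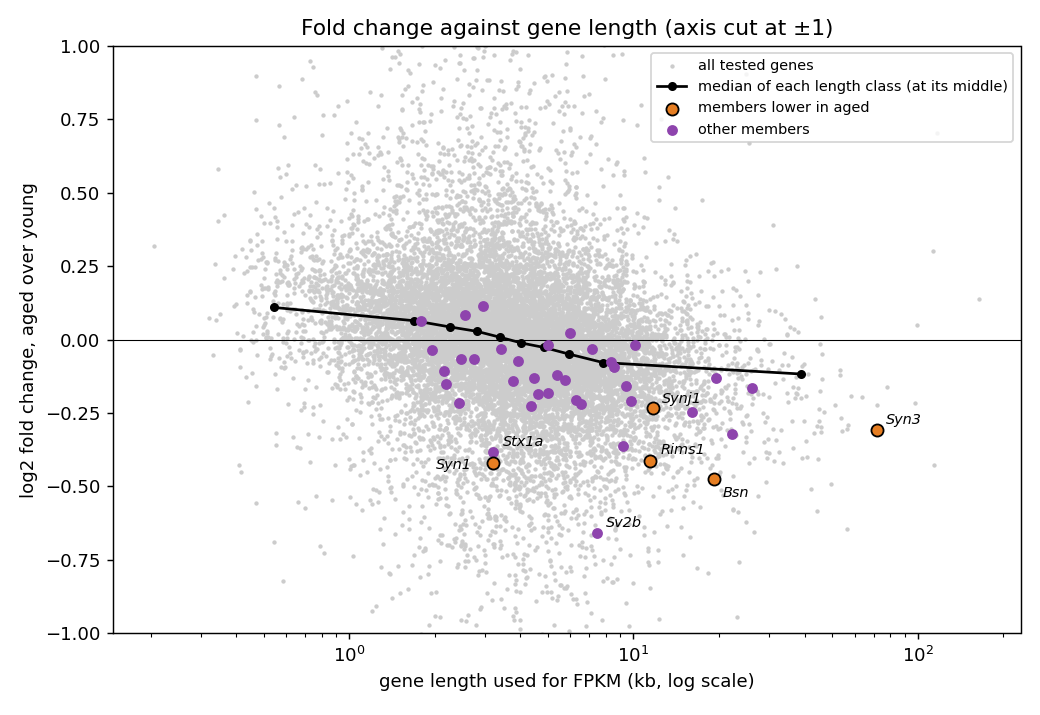
Log2 fold change, aged over young, against the gene length used for FPKM on a log axis; grey points are all tested genes, the line joins the median of each length class, and orange (lower in aged) and purple (not passed) circles mark the 41 genes; the vertical axis ends at 1 in each direction. The medians run from 0.11 to -0.12, and Rims1, Bsn, Synj1 and Syn3 lie below the line at its long end while Syn1 lies below it at 3.21 kb.

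On FPKM, which is per length and allows levels of different genes to be set side by side, the 41 genes spanned 0.843 (Syn3) to 513 (Snap25) on average over the 6 libraries. Snap25, Syp and Vamp2 led, followed by Dnm1 and Nsf. Snap25 averaged 479.9 ± 87.3 FPKM in aged and 545 ± 48.7 FPKM in young libraries, and Syp 480.4 ± 20.9 FPKM in aged and 492 ± 22.0 FPKM in young mice (n = 3 per age, ± SD), so the order of these neighbours lay within their spread. The scaffolds were far lower, with Bsn at 11.1 ± 0.684 FPKM in aged and 15.04 ± 1.72 FPKM in young libraries. The lengths behind FPKM ranged from 0.270 to 5.87 times the GENCODE M21 exon length. Syn3 was at the upper end, and its FPKM rests on that length too. For the leading genes the ratio was 0.358 (Snap25), 0.476 (Syp), 0.568 (Vamp2), 0.851 (Dnm1) and 0.451 (Nsf). The order of these genes rests on the lengths used for FPKM, and their order on other lengths was not tested.

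Shares of paralogs within their families were compared on FPKM by a two-sided exact permutation test over the 6 libraries, for which 0.1 is the smallest possible p. Of 16 shares, 4 reached an exact p of 0.1 and none was lower, which gave a Benjamini-Hochberg adjusted value of 0.4. Syn1 made up 59.5%, 61.6% and 58.3% of synapsin FPKM in aged libraries, against 65.1%, 64.5% and 63.6% in young libraries. Syn2 made up 39.9% ± 1.64 in aged and 35.2% ± 0.762 in young mice (n = 3 per age, ± SD), so the synapsin mix held less Syn1 in all 3 aged libraries. Rims1 made up 63.1%, 64.0% and 63.6% of Rims1 and Rims2 together in aged libraries, against 65.5%, 66.4% and 66.8% in young libraries. Here too the groups did not overlap. The share of Sv2b among SV2 genes was 4.45%, 4.72% and 4.57% in aged and 5.12%, 9.40% and 5.62% in young libraries, with the highest in young replicate 2. Napa made up 51.1% ± 3.34 of Napa and Napb together in aged and 45.6% ± 1.89 in young libraries (exact p = 0.2). Shares of Syt1, Sv2a, Sv2c, Syp, Vamp1, Cplx1, Unc13a to Unc13c, Erc1 and Syn3 overlapped between groups.

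**Figure D4:**
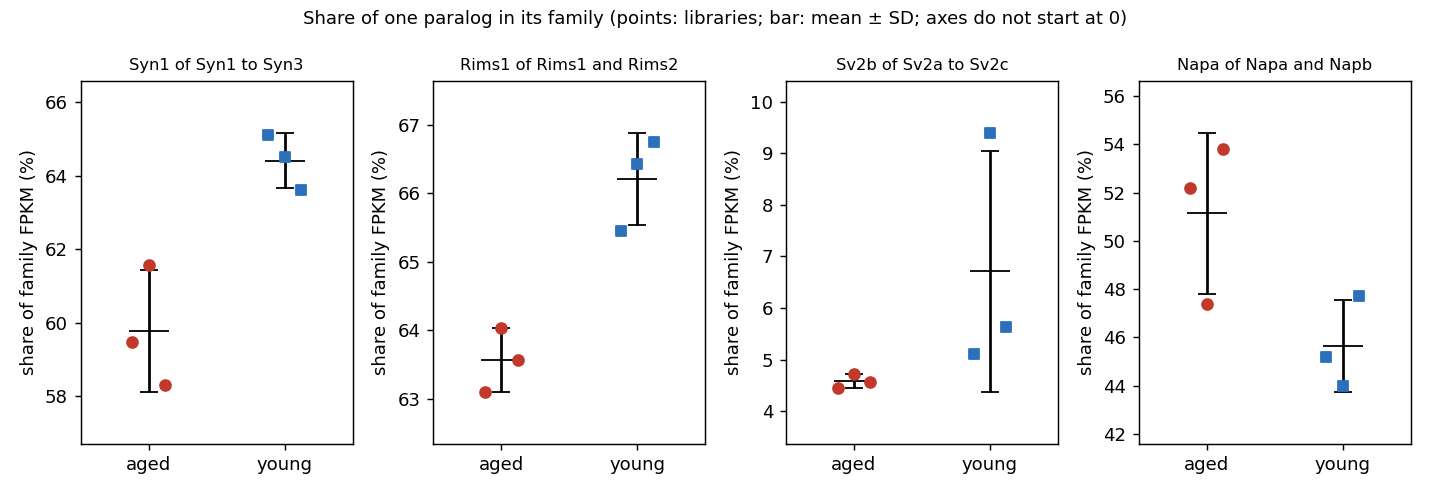
Share of 1 paralog in the FPKM of its family, per library, for Syn1, Rims1, Sv2b and Napa; points are libraries, bars give the mean ± SD (n = 3), and the axes do not start at 0. Groups are apart for Syn1, Rims1 and Sv2b and overlap for Napa, and Sv2b is highest in young replicate 2 at 9.40%.

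The 41 genes summed to 14629, 15112 and 14389 CPM in aged libraries, against 16398, 17312 and 15571 CPM in young libraries. All aged sums lay below all young sums, and the mean was 10.5% lower in aged libraries. The 16 general neuron markers summed to 6876 to 7033 CPM in aged mice and 7012 to 7559 CPM in young mice, which overlapped, with a mean 3.76% lower. The ratio of the sums was 2.13, 2.15 and 2.08 in aged and 2.31, 2.29 and 2.22 in young libraries. This ratio was not corrected for gene length. With the length trend removed, the median log2 fold change went from -0.15 to -0.11 for the 41 genes and from -0.03 to -0.05 for the neuron markers. The part of length in the ratio was not tested. None of the 16 neuron markers passed in edgeR or limma-voom, 3 were lower at an unadjusted p under 0.05, and DESeq2 called 1 lower. At the unadjusted threshold, 13.7% of all tested genes were lower in edgeR.

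Marker sums of other cell types also differed in places. For the counts of markers below, 3.64% of all tested genes fell and 3.22% rose. Astrocyte markers summed to 2106 to 3007 CPM in aged mice and 3347 to 3580.1 CPM in young mice, and 3 of 10 fell. Endothelial markers summed to 186 to 222 CPM in aged mice and 225 to 272 CPM in young mice, and 3 of 8 fell. Microglial markers summed to 391 to 433 CPM in aged mice and 356 to 368 CPM in young mice, with 3 of 10 higher and 1 lower. Oligodendrocyte markers overlapped (7236 to 7541 CPM in aged, 6580.2 to 8359 CPM in young libraries; 1 of 10 fell). Markers of thalamus and habenula summed to 586 to 695 CPM in aged mice and 665 to 893 CPM in young mice, and 2 of 9 tested fell and 1 rose. Of cortex, hippocampus and amygdala markers, 2 of 9 tested fell. No marker was at 0 in any library, and Emx1 and Pou4f1 had 22 reads or fewer in each. The part of these differences in the synaptic genes was not tested.

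Of the related genes of the same machinery that passed in edgeR, only Rab3b rose. Among 28 further fusion regulators, 1 rose (Rab3b) and 2 fell, Rab3c among them. Over all tested genes, 3.22% rose and 3.64% fell. Rab3b and Rab3c encode vesicle GTPases that bind RIM. Rab3b averaged 105 CPM in aged mice and 86.1 CPM in young mice, a log2 fold change of 0.29 ± 0.06 SE with an edgeR adjusted p of 0.0255. Rab3c averaged 533 CPM in aged mice and 703 CPM in young mice (-0.40 ± 0.09 SE, edgeR adjusted p = 0.0354). Over the 28 genes the median of the log2 fold changes was -0.11, and with the length trend removed Rab3b rose and 0 fell.

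Of 16 partners of the active zone, Cask and Apba1 fell and 14 did not pass (median log2 fold change -0.06). Among all tested genes, 3.64% fell and 3.22% rose. Cask and Apba1 (Mint1) are adaptor proteins that bind each other at the presynaptic membrane. Cask had a log2 fold change of -0.35 ± 0.06 SE (edgeR adjusted p = 0.0114) and Apba1 of -0.38 ± 0.07 SE (edgeR adjusted p = 0.0156). Both also fell with the length trend removed. Cask is X-linked, and the limit of the sex-linked signal holds for it as for every gene here. Apba2 did not pass (-0.23 ± 0.08 SE, edgeR adjusted p = 0.108).

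Over all tested genes, 3.64% fell and 3.22% rose. Of 25 endocytosis and recycling genes, 4 fell, 0 rose and 21 did not pass (median log2 fold change -0.06). These were Itsn1, an endocytic scaffold (-0.35 ± 0.05 SE, edgeR adjusted p = 0.00890), Ston2, an adaptor for synaptotagmin (-0.40 ± 0.09 SE, 0.0293), Snap91, the clathrin assembly protein AP180 (-0.24 ± 0.06 SE, 0.0376), and the clathrin adaptor subunit Ap2b1 (-0.22 ± 0.05 SE, 0.0406). With the length trend removed, 0 of the 25 passed in edgeR, and 4 were lower and 4 higher at an unadjusted p under 0.05. Of 17 further vesicle proteins and transporters, 0 passed in edgeR, DESeq2 or limma-voom, and 3 were lower and 1 higher at an unadjusted p under 0.05. Of all tested genes, 13.7% were lower and 12.6% higher at that threshold in edgeR. The smallest edgeR adjusted p among the 17 were those of Slc17a7 (log2 fold change -2.37 ± 0.74 SE, 0.0832), Slc18a3, the vesicular acetylcholine transporter (1.31 ± 0.47 SE, 0.115), and Dnajc5, a vesicle chaperone (-0.15 ± 0.06 SE, 0.136). Slc18a3 was scarce, at 7.62, 6.91 and 7.85 CPM in aged and 5.80, 2.59 and 0.668 CPM in young libraries. For Slc17a7, young replicate 1 (11.3 CPM) lay within the aged range of 9.58 to 22.1 CPM.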

How the data were processed

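Per the labels' protocols, hypothalamus RNA came from a mirVana isolation and was sequenced from TruSeq stranded mRNA libraries. Trimmomatic, HISAT2, Cufflinks, HTSeq, DESeq and the build GRCm39 are named without versions in the submitters' processing notes. The deposited table of counts holds whole reads per gene with no normalization. The deposited FPKM table divides the same counts by a gene length and the library total, within a relative tolerance of 1e-06. Library totals were 17208291 to 18884403 reads.

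The counts were tested with edgeR 4.0.16 (R 4.3.3): filterByExpr (minimum count 10, minimum total 15) kept 14702 genes, which were scaled by TMM and fitted with the quasi-likelihood test, aged against young, with no covariate. The log2 ratio of aged to young is given with the SE that the F statistic implies. In simulated counts for these 14702 genes, 28% of 50 genes changed 1.3-fold and 68% of 50 changed 1.5-fold were called. Alternatives used DESeq2 1.42.0, limma 3.58.1, other scalings, filters and pseudocounts (1 and 0.1), a length offset, a replicate block and left-out libraries. The length offset was a loess trend per library (span 0.5). Chromosomes, exon overlaps and promoters came from GRCm38 tables by symbol, a build other than the authors'.

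The members, lists and the rule for named genes were chosen with earlier results of these data known. The rule names called members, the 3 most and 3 least abundant per length, the smallest p of each role, and 3 genes per related list, of which 1 is not reported here. Pclo, Rims2, Rims3, Syt1, Syt2, Syt7, Dnm1, Ap2b1, Timp3 and some others were added after their values were seen. Replicates were compared for copies (chi-square per degree of freedom 4.00 to 12.1).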

Additional observations from a re-analysis of the deposited data

How the results depend on the processing

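The number of the 41 genes lower in aged libraries moved from 5 to 3 with total-count scaling, with limma-trend on log2(FPKM + 1), with limma-trend on log2(FPKM + 0.1) and with the length trend removed. It became 10 with DESeq2, 12 at an adjusted p under 0.1, and 0 to 7 without single libraries. In every alternative run, 0 of the 41 were higher. Genes lower over the whole table numbered 446 with total-count scaling, 293 and 303 on the FPKM scales and 343 with the length trend removed. They numbered 720 with DESeq2, 1170 at an adjusted p under 0.1 and 55 to 732 without single libraries. Genes higher numbered 1017 at an adjusted p under 0.1 and 95 to 901 without single libraries. The median log2 fold change of the 41 was -0.12 with total counts, -0.11 and -0.12 on the FPKM scales, -0.11 with the length trend removed, and -0.18 to -0.12 without single libraries. The cause of these shifts was not tested.

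The replicate numbers were not shown to pair the mice: deviations of same-numbered libraries correlated at 0.10, 0.04 and -0.14. With the replicate block, 10 of the 41 were lower, and 7 with the length trend removed as well, where the median was -0.11. Over all tested genes, 4.54% were lower with the block and 3.02% with the length trend removed as well.

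Of 818 single-gene values under alternatives, 733 kept sign and side of the threshold, 29 lost a call, 27 gained it and 29 changed sign, each of these in a gene that did not pass. The log2 fold change of Sv2c was 0.0086 with total counts, 0.011 and 0.012 on the FPKM scales with pseudocounts 1 and 0.1, 0.073 with the length trend removed and 0.077 with the block added. In the same order the log2 fold change of Ppfia3 was 0.010, 0.0089, 0.0091, 0.014 and 0.013. The log2 fold change of Erc2 was 0.0019 and 0.0026 on the FPKM scales, 0.031 with the length trend removed and 0.036 with the block added. With the length trend removed and then with the block added, the log2 fold change of Unc13b was 0.013 and 0.016, and the log2 fold change of Ppfia2 0.0036 and 0.0028. Without single libraries, Sv2c ranged from -0.088 to 0.081, Ppfia3 from -0.038 to 0.046, Erc2 from -0.11 to 0.048, Unc13a from -0.19 to 0.049, Syt4 from -0.018 to 0.073, Syngr3 from -0.065 to 0.0015, Syt5 from -0.0042 to 0.12 and Amph from -0.042 to 0.0042. The 41 genes had at least 40.5 CPM in every library. In counts simulated at these depths and this spread, 28% of genes changed 1.3-fold were called, so small changes can be missed. Those were 50 genes drawn from all tested genes, with 50 more changed at each of 1.5-, 2- and 4-fold and the rest left unchanged. The real data may hold another share of changed genes, on which the adjusted p depends. The 28% is therefore not a rate for the 41 or for the real comparison. The part of depth was not tested.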
